A study of Mus musculus with 12 samples.

Results

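Among 213 distinct tRNAs, 10 were tRNA-Leu with the anticodon AAG, CAG or TAG, the tRNAs that read the CUN box of leucine codons. They were chosen by name, and entries with identical values in every library were counted once, which reduced 18 of 404 entries to 3 distinct tRNA-Leu-AAG, 4 tRNA-Leu-CAG and 3 tRNA-Leu-TAG. The study, whose title names pseudouridine synthase 10 (PUS10), compared wild-type mice labelled young and old in their hematopoietic stem and progenitor cells, the cells that form blood. Small RNA was stripped of base methylations with wild-type and mutant AlkB and incubated in BEU buffer with the carbodiimide CMC or without it, with 3 libraries for each of the 4 combinations of age and treatment. The ages of the mice, the number of animals behind a library and any pooling were not given in the sources used here, so the tests measure the spread between these libraries.

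CMC remains on pseudouridine after alkaline treatment and halts reverse transcriptase next to it, so a stop that appears only with CMC marks a candidate pseudouridine. In mammals PUS1 acts on the upper anticodon stem at positions 27 and 28, PUS3 on positions 38 and 39, and TRUB1 and PUS10 on the T loop, at position 55 and, for PUS10, also at 54. Leucine and serine tRNAs carry a long variable arm, and dihydrouridine is common in the D loop near position 20. Bases are numbered here by the usual tRNA scheme, v1, v2 and v3 are the first bases of the variable arm, and row numbers count listed bases from 1 at the 5′ end.

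The sequences below are as listed in the deposited tables, 5′ to 3′, for the best-covered tRNA of each anticodon and for those whose called positions differ from it. Capitals mark every T at which stops rose with CMC in young or old cells by the rule given further on.
tRNA-Leu-AAG-1-1: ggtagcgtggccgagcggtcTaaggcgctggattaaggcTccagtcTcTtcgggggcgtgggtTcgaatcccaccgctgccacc
tRNA-Leu-AAG-3-1: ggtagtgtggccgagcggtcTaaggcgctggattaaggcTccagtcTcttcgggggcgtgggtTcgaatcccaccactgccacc
tRNA-Leu-CAG-2-1: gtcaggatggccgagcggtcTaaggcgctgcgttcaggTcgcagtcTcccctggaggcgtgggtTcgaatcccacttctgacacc
tRNA-Leu-CAG-4-1: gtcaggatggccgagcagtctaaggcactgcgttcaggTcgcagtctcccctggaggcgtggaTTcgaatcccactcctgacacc
tRNA-Leu-TAG-1-1: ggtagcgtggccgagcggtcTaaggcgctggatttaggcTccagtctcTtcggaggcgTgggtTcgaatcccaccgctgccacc
tRNA-Leu-TAG-2-1: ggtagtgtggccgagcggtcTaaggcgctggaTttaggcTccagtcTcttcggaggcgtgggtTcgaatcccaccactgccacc
tRNA-Leu-TAG-3-1: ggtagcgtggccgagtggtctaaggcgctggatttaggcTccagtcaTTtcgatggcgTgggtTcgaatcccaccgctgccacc
The listed sequences have 84 bases in AAG and TAG and 85 in CAG. AAG-1-1 and TAG-1-1 differ at A35T, in the anticodon, and at G54A, in the variable arm (rows from 1 at the 5′ end, AAG-1-1 first). AAG-1-1 and AAG-3-1 differ at C6T and G76A, both in the acceptor stem. CAG-1-1 and CAG-2-1 differ at C77T, and CAG-4-1 differs from CAG-1-1 at G17A, G27A and G63A. The listing of CAG-3-1, which differs from CAG-1-1 at C16T, lacks rows 22 to 31, so it is not shown. TAG-3-1 differs from TAG-1-1 at C16T, T47A, C48T, G53A and A54T, most of them in the variable arm.

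The 10 tRNAs held between 4.88% and 7.97% of the summed highest coverage of a library. Coverage never exceeded 8015 in any tRNA, and up to 8 of the 10 reached 7500, a level called the ceiling here, in a BEU library. In CMC libraries the ceiling was reached only in young replicate 2, by 3 of the 10. At 23 of 44 member bases called in young cells and 33 of 54 in old cells, by the rule given next, a pair of libraries had 1 at this ceiling. Leaving out those pairs moved the mean rise by at most 2.43 points in young and 2.59 in old cells. It took T20b of CAG-1-1 and CAG-2-1 in young cells and v1 of both in old cells below the rise required. No pair was left at T55 of CAG-2-1 in either age and of CAG-1-1 in young cells.

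Stops rose with CMC in young cells at 36 of the 156 member T sites tested (23.1%), against 18.8% of all 2189 T sites. In old cells 43 member sites were called (27.6%), against 20.3% of all T sites. All 36 sites of the young cells were among the 43 of the old. A site was tested with coverage of at least 20 in all 12 libraries and called with an adjusted p under 0.05 (edgeR quasi-likelihood test, Benjamini-Hochberg), a rise that averaged 10 percentage points or more and was above 0 in each of 3 pairs of libraries. A pair is the CMC and the BEU library of the same age and replicate number, and the rise is the stop rate with CMC minus that without. The members were called at position 55 (10 of 10), at 38 or 39 (10 of 10), at 20b of the D loop (7 of 7 tested), along the variable arm (8 of 27 T sites in young cells, 12 in old) and at single sites elsewhere.

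**Figure D1:**
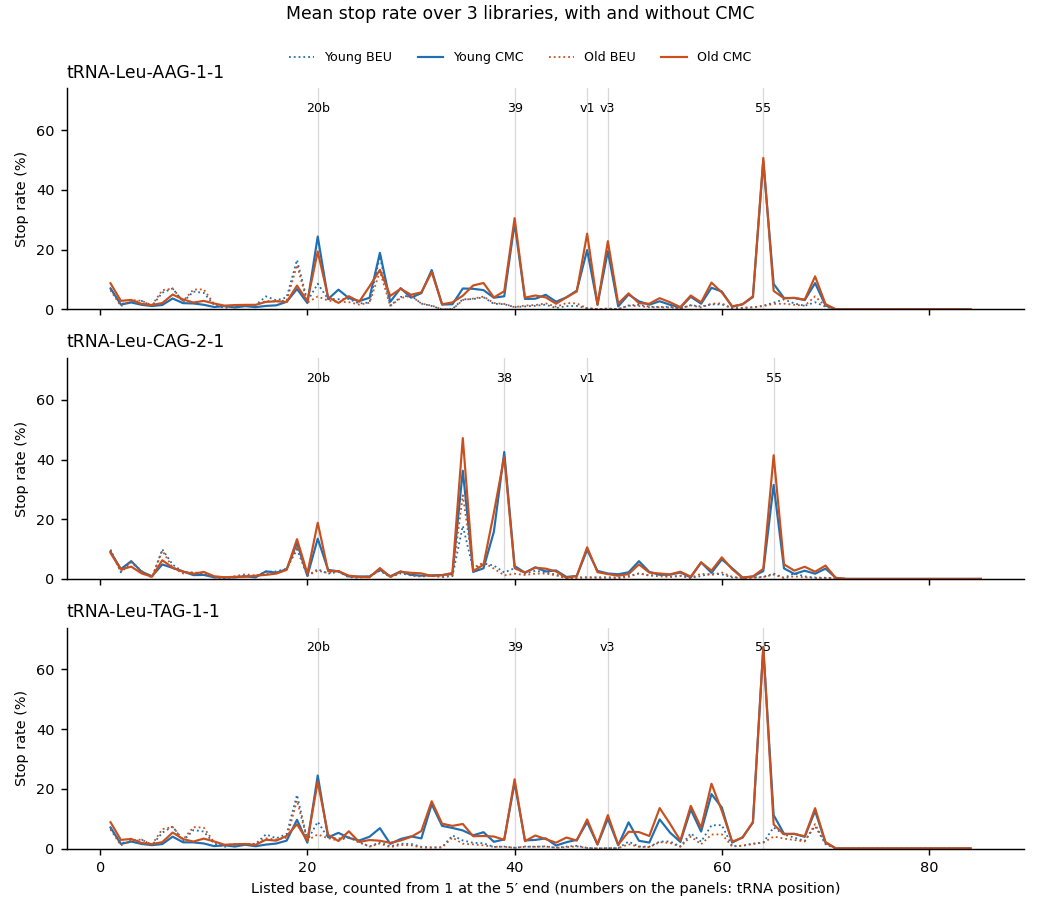
Mean stop rate (%) over 3 libraries along tRNA-Leu-AAG-1-1, CAG-2-1 and TAG-1-1, by listed base; solid lines are CMC, dotted lines BEU, and grey lines mark called T sites with their tRNA position. The CMC lines rise above the BEU lines at 20b, at 38 or 39, in the variable arm and at 55, where TAG-1-1 reached 67.3% in young cells.

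Position 55, the T-loop uridine that nearly all tRNAs carry as pseudouridine, was called in all 10 members. In AAG-1-1 the stop rate with CMC was 50.6%, 48.1% and 50.3% in young cells and 49.4%, 53.7% and 49.04% in old cells. Without CMC it lay between 0.982% and 1.42%. The stop rate rose by 48.4 ± 1.53 points in young cells and by 49.6 ± 2.72 in old cells (SD, n = 3 pairs each), and no CMC library overlapped a BEU library. Among the members the rise ran from 19.7 ± 0.858 points in AAG-3-1 to 83.1 ± 1.47 in CAG-4-1 in young cells, and from 17.05 ± 0.686 to 85.1 ± 2.18 in old cells. The remaining tRNAs lay between 24.3 points, in CAG-1-1 of old cells, and 65.5 points, in TAG-1-1 of old cells.

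The stop reads behind these rates were not separate for each tRNA. A read that stops at position 55 holds only the bases 3′ of it, and the 20 listed bases there are the same in AAG-1-1, AAG-2-1, TAG-1-1 and TAG-3-1. These 4 tRNAs had identical stop reads in all 6 CMC libraries, 935, 2998 and 483 in young and 865, 604 and 1451 in old cells. Their coverage differed, and so did their rates: summed over the CMC libraries, 49.3% in AAG-1-1 and 66.6% in TAG-1-1 on the same 7336 stop reads. AAG-3-1 and TAG-2-1 shared 944 stop reads in the same way, at 19.3% and 41.4%.

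CAG-1-1, CAG-3-1 and CAG-4-1 shared 3633 stop reads at position 55. Coverage in the CMC libraries was 917 to 6243 reads in CAG-1-1 and 224 to 1706 in CAG-4-1, and the summed rates were 24.8% and 88.6%. The 10 called sites at position 55 thus rested on 4 distinct sets of stop reads. The order of the members at position 55 is therefore an order of stop reads over coverage, in which only the coverage differed within each of these groups. Over all 43 called T sites there were 29 distinct sets. Some of the 29 differ by few reads: at position 38, CAG-1-1 had 3337 and CAG-2-1 had 3341 over the CMC libraries. The independent measurements are thus fewer than 29.

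**Figure D2:**
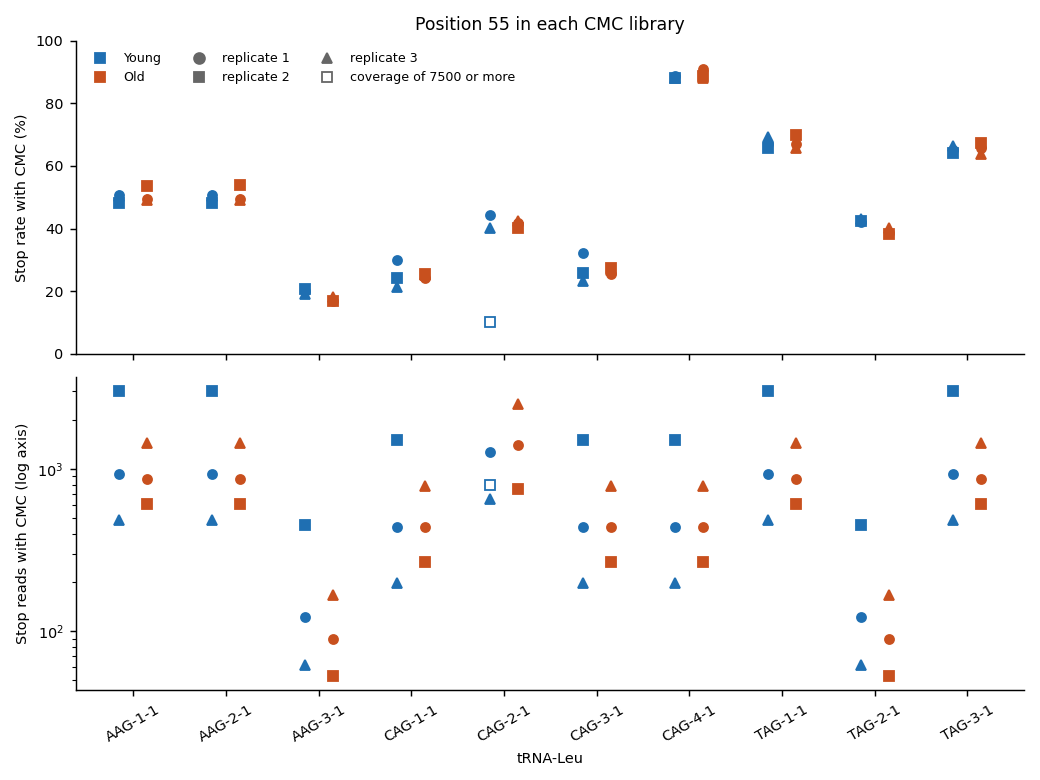
Position 55 in each CMC library by member: stop rate (%) above and stop reads on a log axis below, young in blue and old in orange, with open symbols for coverage of 7500 or more. Members that share the bases 3′ of position 55 have the same stop reads and different rates, as AAG-1-1 and TAG-1-1 do.

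CAG-2-1 stood apart at position 55 through 1 library. Its stop rate with CMC was 44.2%, 10.1% and 40.2% in young cells and 41.8%, 40.2% and 42.4% in old cells. The low value is young replicate 2, where coverage was 7932 and so at the ceiling. Its rise was 29.7 ± 18.9 points in young cells and 39.98 ± 1.11 in old cells (SD, n = 3). In the other 5 CMC libraries its stop reads were identical to those of the 4 tRNA-Leu-CAA, which end in the same 20 bases.

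Position 54, the other T-loop uridine that PUS10 is known to modify, was a T in all 10 members and was called in CAG-4-1. There the stop rate with CMC was 24.1%, 19.3% and 6.9% in young and 30.2%, 34.3% and 31.4% in old cells, so the ages did not overlap. The rise was 12.7 ± 8.69 points in young cells and 29.2 ± 2.37 in old cells. Behind it lay 13, 37 and 2 stop reads in young and 13, 12 and 32 in old cells, with coverage between 29 and 192. CAG-1-1 and CAG-3-1 had the same stop reads in all 6 CMC libraries, at summed rates of 0.99% and 1.09% against 24.0% in CAG-4-1. Without young replicate 1 the young rise was 8.78 points and no longer called. In the other 9 members the rise at position 54 stayed between 0.265 and 7.4 points. CAG-4-1 is the member with A in place of G just 5′ of position 54. That A, at position 53, was also called in young cells (10.8 ± 4.97 points) but not in old (4.73 ± 4.66). On 30 or fewer reads in 3 CMC libraries, it lost its call without young replicate 1 or 3. A read that stops at position 53 holds only the bases 3′ of it, which are the same in CAG-1-1 and CAG-4-1. Such a read does not hold the A and need not come from CAG-4-1.

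In the anticodon arm the called T followed the sequence. CAG has T at position 38 and the other members have T at 39, the bases that PUS3 modifies in mammals. In CAG-2-1 the stop rate at 38 with CMC was 38.2%, 45.02% and 44.4% in young and 41.2%, 39.05% and 42.7% in old cells, and without CMC it was at most 3.19%. The rise was 40.3 ± 3.63 points in young cells and 39.8 ± 1.97 in old cells. The 4 CAG tRNAs ran from 21.7 ± 4.25 points in CAG-4-1 to 54.2 ± 5.27 in CAG-3-1 in young cells and from 15.9 ± 1.502 to 48.5 ± 3.03 in old. CAG-3-1 and CAG-1-1 again shared identical stop reads, 3337 over the CMC libraries, at summed rates of 54.7% and 42.8%. CAG-4-1 had stop reads of its own here, between 31 and 128 a library. The call of CAG-3-1 in young cells was lost without young replicate 1 (adjusted p = 0.0501, edgeR).

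At position 39 the stop rate of AAG-1-1 with CMC was 24.6%, 29.7% and 32.3% in young and 29.1%, 33.8% and 28.7% in old cells, and without CMC it was at most 1.18%. The rise was 28.1 ± 4.24 points in young cells and 29.8 ± 2.74 in old cells. In TAG-1-1 the rate with CMC was 18.8%, 23.3% and 23.9% in young and 26.8%, 20.6% and 22.2% in old cells, and at most 0.373% without it. The 6 AAG and TAG tRNAs lay within a narrow band, from 21.7 to 29.8 points in young and from 23.0 to 31.2 in old cells. AAG-1-1 and AAG-2-1 had identical stop reads with CMC there, and AAG-3-1 differed from them by at most 1 read a library. TAG-1-1 and TAG-2-1 also differed by at most 1, so the 6 tRNAs are fewer than 6 measurements. No member has T at position 27, 13 or 35. Position 28 is T in 9 members and was tested in 8, with rises between -5.86 and 3.37 points and no call.

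**Figure D3:**
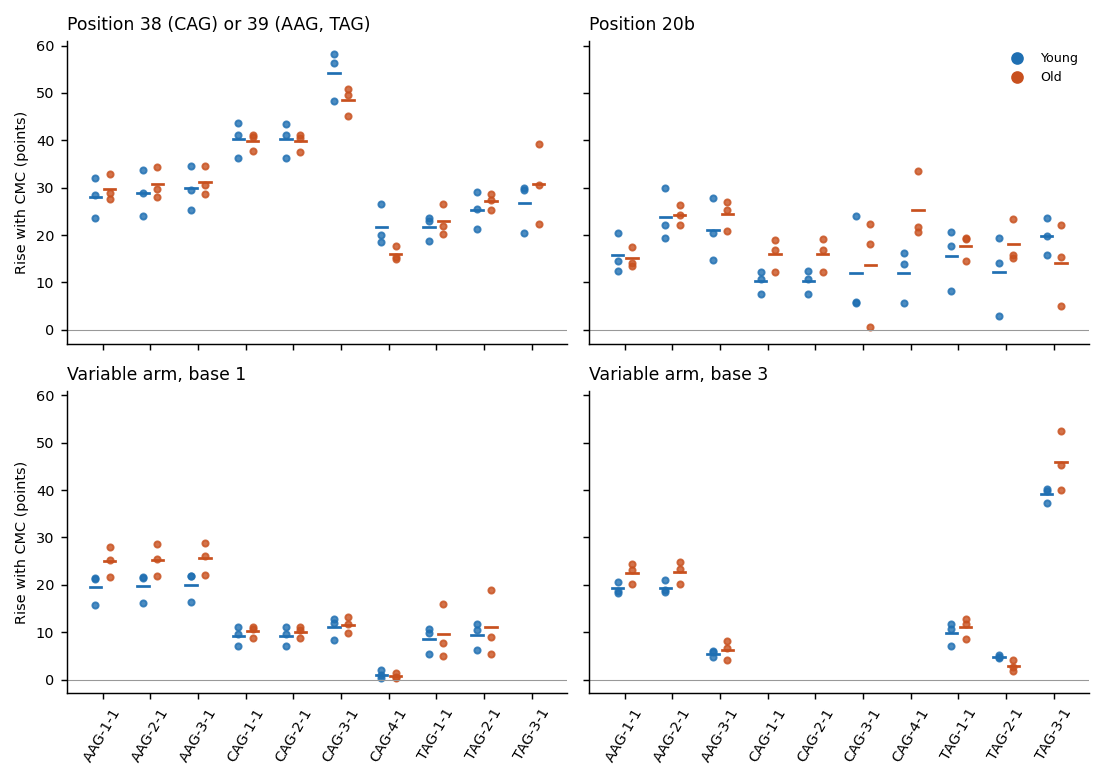
Rise of the stop rate with CMC (percentage points) at position 38 or 39, at 20b and at 2 bases of the variable arm, where the member has T there; points are the 3 pairs of each age and bars their means. TAG-3-1 stands highest at base 3 of the variable arm and AAG at base 1; at 20b, CAG-3-1, CAG-4-1 and TAG-3-1 had coverage under 20 in some libraries and were not tested.

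In the variable arm, different bases were called in different members. In AAG-1-1 the stop rate at v1 with CMC was 21.7%, 21.9% and 16.05% in young and 25.7%, 28.5% and 22.0% in old cells, a rise of 19.5 ± 3.27 and 25.0 ± 3.22 points. The old libraries all lay above the young at this base. The 3 AAG tRNAs had identical stop reads at v1, so they count as 1 measurement. At v3, AAG-1-1 rose by 19.3 ± 1.25 points in young and 22.6 ± 2.24 in old cells, while AAG-3-1, whose variable arm is identical, rose by 5.49 and 6.25 points and was not called. Its stop reads at v3 were 16 to 83 a library, against 66 to 400 in AAG-1-1.

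TAG-3-1 has atttcgatgg as its variable arm, where TAG-1-1 has tcttcggagg. At v3 its stop rate with CMC was 41.0%, 41.6% and 38.7% in young and 46.3%, 53.6% and 41.6% in old cells, and at most 1.5% without CMC. The rise was 39.1 ± 1.57 points in young cells and 45.9 ± 6.22 in old cells, the highest of the variable arm. Its neighbours v2, also a T, and v1, an A, were called too: v2 rose by 17.6 ± 4.14 and 19.7 ± 6.09 points, and v1 by 16.9 ± 5.62 and 10.6 ± 2.01, the latter not called without old replicate 1. In TAG-1-1 the rise at v3 was 9.86 ± 2.43 points in young cells, just under the 10 required, and 11.0 ± 2.26 in old cells. At v1, CAG-1-1 and CAG-2-1 rose by 9.25 and 9.21 points in young cells, and by 10.2 and 10.1 in old cells, where the call was lost without old replicate 1 or 2. CAG-3-1 rose by 11.1 and 11.6. CAG-3-1 and CAG-1-1 shared 1081 stop reads at v1 over the CMC libraries, at summed rates of 12.2% and 10.5%. CAG-4-1 rose by 1.02 and 0.751 points at the same base of the same variable arm.

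In the D loop, position 20b of AAG-1-1 stopped at 21.7%, 22.9% and 28.6% of reads with CMC in young and at 18.5%, 17.5% and 22.1% in old cells. The rise was 15.8 ± 4.19 and 15.04 ± 2.20 points. Among the 7 tRNAs tested it lay between 10.2 and 23.8 points in young and between 15.04 and 24.3 in old cells. Coverage here was low in CMC libraries, 40 to 253 reads in AAG-1-1 and down to 22 in AAG-3-1 and TAG-2-1. The young calls of CAG-1-1, CAG-2-1 and TAG-2-1 were each lost without young replicate 2 and also without young replicate 3.

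Position 20, 1 of the usual dihydrouridine positions, went the other way in 2 members. AAG-1-1 stopped at 16.2%, 17.2% and 16.4% of reads in young BEU libraries and at 5.19%, 5.6% and 9.76% in young CMC libraries. The rate fell by 9.76 ± 2.74 points with CMC in young (adjusted p = 0.00886, edgeR) and by 6.87 ± 4.06 in old cells (adjusted p = 0.0373), in all 3 pairs of each age. TAG-1-1 fell by 8.33 ± 3.21 points (adjusted p = 0.0287) and by 7.94 ± 3.73 (adjusted p = 0.0244). A mean fall of at least 5 points with such a p and a fall in all 3 pairs was seen at 1.14% of all T sites in young and 1.05% in old cells, by a rule chosen after the values were seen. CMC coverage at this base of AAG-1-1 was 37 to 232 reads, with 2 to 13 stop reads. CAG-2-1 rose by 2.11 ± 9.6 points in young and 2.42 ± 9.47 in old cells, but 2 BEU libraries at the ceiling read 1.23% and 1.01%. Without them the change was -3.19 points in young cells and -2.07 in old cells.

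Single T sites were called only in old cells in TAG. T50 rose by 17.02 ± 4.51 points in TAG-1-1 and 11.4 ± 1.36 in TAG-3-1, against 10.4 ± 0.764 and 6.26 ± 0.483 in young cells. The 2 tRNAs had identical stop reads with CMC at this base, and the BEU library of old replicate 1 was at the ceiling in TAG-1-1. AAG-1-1 and AAG-2-1 shared these stop reads and were not called. Their summed rates were 8.04% and 8.07%, against 19.7% in TAG-1-1 and 18.1% in TAG-3-1, so only the coverage differed. T32 of TAG-2-1 rose by 10.6 ± 4.14 points and v1 of TAG-2-1 by 11.1 ± 7.01 in old cells, against 9.12 ± 1.65 and 9.51 ± 2.90 in young, and both lost the call without old replicate 2. TAG-1-1 had the same stop reads with CMC at both bases and was not called there. Its summed rates were 7.26% at T32 and 9.43% at v1, against 9.61% and 10.7% in TAG-2-1. The young rises at the sites called only in old cells lay between 6.26 and 10.4 points, near the threshold of 10. A call in 1 age alone does not show a difference between the ages.

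Of the 580 member sites of A, C and G, 8 were called in young and 11 in old cells, 7 of them in both. Over all such sites 0.368% were called in young and 0.61% in old cells. G37, next to the anticodon and a known site of 1-methylguanosine in these tRNAs, was called in CAG-1-1, CAG-2-1 and CAG-4-1. In CAG-1-1 its stop rate with CMC was 19.4%, 12.02% and 15.9% in young and 21.4%, 24.9% and 20.6% in old cells, a rise of 11.3 ± 3.85 and 18.7 ± 2.67 points. In CAG-4-1 the rate was 38.7%, 28.4% and 38.5% in young and 50.0%, 51.8% and 46.5% in old cells, a rise of 29.8 ± 7.29 and 42.8 ± 3.43 points. In both tRNAs every old CMC library lay above every young one. The age test was run on T sites alone, so this difference was not tested. How many A, C and G sites separate the ages in this way was not counted, so no age difference is read from it. In the young cells the calls of CAG-1-1 and CAG-2-1 were lost without young replicate 1.

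A31, in the anticodon stem, was called in the 3 TAG tRNAs in both ages, with rises between 14.4 and 22.3 points. In AAG-1-1 and AAG-3-1 it was called in old cells only, by 11.2 ± 0.92 and 14.3 ± 4.21 points. Their young rises were 12.04 ± 5.28 and 13.5 ± 7.06 points, and the old call of AAG-1-1 was lost when any pair but young replicate 3 was left out. That of AAG-3-1 was lost when any pair but old replicate 1 was left out. A at base 8 of the variable arm (11.4 ± 4.01 points) and C48 (10.3 ± 2.97) of TAG-1-1 were called in old cells, and both lost the call without old replicate 2, C48 also without old replicate 3.

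Without CMC, the highest member stop lay on C34, the wobble base of the CAG anticodon. CAG-3-1 stopped there at 88.0%, 88.8% and 86.3% of reads in young and at 81.5%, 91.2% and 89.9% in old BEU libraries, the 81.5% at the ceiling. CAG-4-1 stopped at 39.3%, 52.4% and 35.2% in young and 30.2%, 38.6% and 37.8% in old libraries. In CAG-1-1 the values were 10.8%, 41.2% and 1.95% in young and 0.943%, 42.5% and 40.9% in old libraries, and CMC libraries gave 34.3% to 48.1%. Young replicate 3 and old replicate 1 were at the ceiling at this base of CAG-1-1. In young replicate 1, below it at this base, CAG-1-1 had 665 stop reads and CAG-3-1 had 3157. In the 3 libraries where CAG-1-1 lay between 40.9% and 42.5%, both had identical stop reads.

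G26, known as a site of dimethylguanosine, stopped 25.3% and 26.8% of young reads in AAG-2-1 and AAG-3-1 without CMC, against 2.10% in TAG-1-1 and 2.77% in CAG-1-1. In CAG-4-1, which has A at position 26, the stop rate there was 73.6%, 77.7% and 75.0% in young and 74.03%, 77.7% and 78.1% in old BEU libraries. CMC coverage of that base fell to 14 reads, under the minimum of 20, so it was not tested. In all, 72 member bases stopped 5% or more of the reads on average over the 6 BEU libraries, from G1 and C6 in the acceptor stem to T60 in the T loop.

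**Figure D4:**
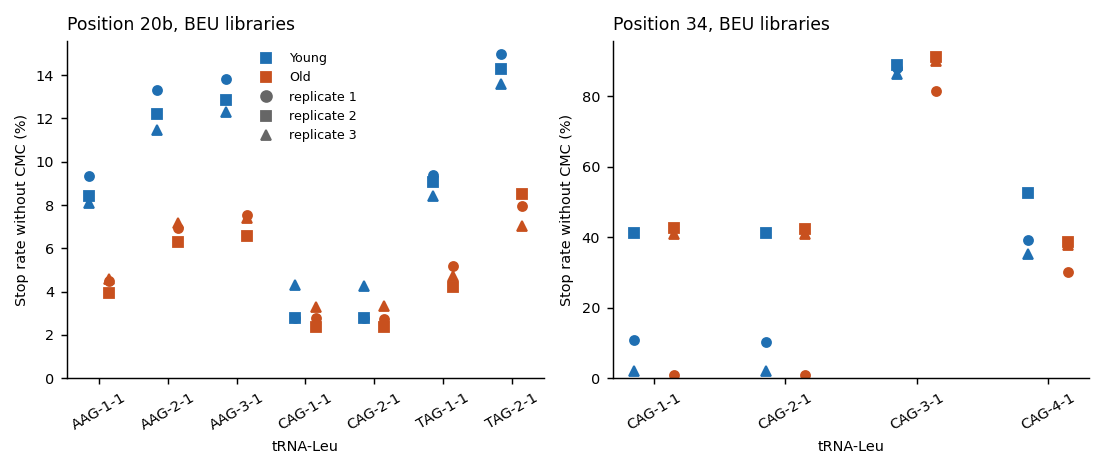
Stop rate without CMC (%) in each BEU library at position 20b and at position 34 of the CAG tRNAs, young in blue and old in orange, with a symbol for each replicate. At 20b the old libraries of AAG and TAG lie below all young ones; at position 34 of CAG-1-1 and CAG-2-1, 3 libraries lie at or below 10.8%.

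The ages were compared first for stops without CMC. No member base of 72 passed (edgeR, adjusted p), nor did any of all 1190 bases (0%); 7 members and 69 of all bases had an unadjusted p under 0.05. Of these 7, 5 were T20b. Its BEU stop rate in AAG-2-1 was 13.3%, 12.2% and 11.5% in young and 6.95%, 6.29% and 7.16% in old cells, so the ages did not overlap. In TAG-2-1 it was 14.96%, 14.3% and 13.6% in young and 7.97%, 8.52% and 7.03% in old cells. Fitted on the bases below the ceiling in all 12 libraries, 5 of 50 member bases were called, T20b of AAG-1-1, AAG-2-1, AAG-3-1, TAG-1-1 and TAG-2-1. They fell by 4.28, 5.53, 5.81, 4.25 and 6.44 points in old cells (adjusted p between 0.000185 and 0.0017). In that fit 5.38% of 893 bases were called lower in old cells and 0.224% higher. DESeq2 on all bases called 4 of the 5, all but TAG-2-1, against 0.756% of all 1190 bases called lower in old cells, and limma on points called none of the members. AAG-1-1 and AAG-2-1 had the same stop reads at T20b, so the 5 bases are fewer than 5 measurements.

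CMC-dependent stops were not called different between the ages at any member site, which does not show that they were equal. The test covered 39 member T sites whose rise averaged at least 10 points over the 6 pairs, and called none of them, nor any of all 439 T sites (0%, edgeR). limma on log odds, limma on points and DESeq2 also called no member. An unadjusted p under 0.05 was found at 3 member sites and 22 of all sites. The rise was higher in old cells at 30 of the 39 sites and lower at 9, with a median difference of 1.72 points, against 1.39 points over all sites tested. How many of all 439 sites were higher in old cells was not counted, so 30 of 39 is not shown to be particular to the members. The 39 sites are also not separate measurements: the 10 at T55 rest on 4 sets of stop reads. The pairs of the ages did not overlap at 8 of the 39 sites, 5 higher and 3 lower in old cells, against 13% of all sites, 10.9% higher and 2.05% lower. Among those higher was v1 of AAG-1-1, AAG-2-1 and AAG-3-1, which had identical stop reads with CMC. Among those lower was T55 of AAG-3-1 and TAG-2-1, which also had identical stop reads. The 8 sites are thus fewer than 8 measurements.

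**Figure D5:**
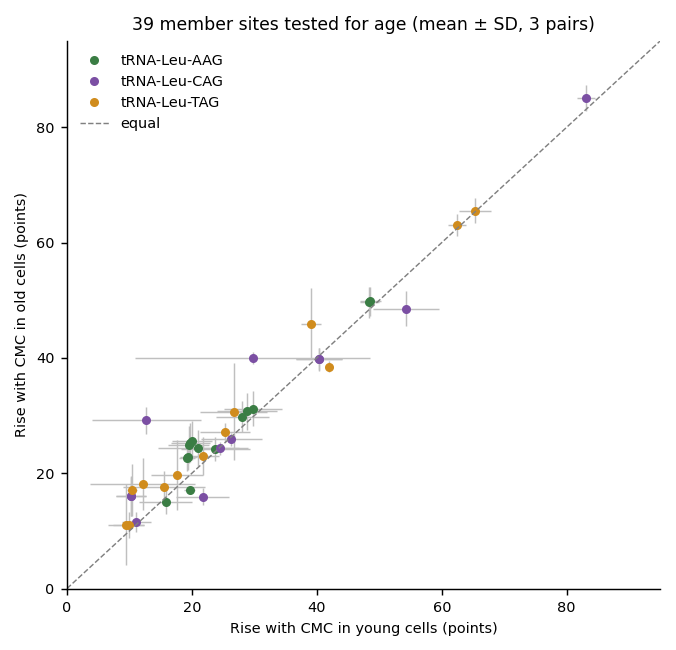
Rise with CMC in young and in old cells (percentage points) at the 39 member T sites tested for age, with SD over 3 pairs as bars and a dashed line of equal rise. Most sites lie close to the line; CAG-4-1 at position 54 lies above it, at 12.7 and 29.2 points.

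The 5 highest age differences were T54 of CAG-4-1 (16.4 points), T55 of CAG-2-1 (10.3), v3 of TAG-3-1 (6.85), T50 of TAG-1-1 (6.58) and T20b of TAG-2-1 (6.0). That of CAG-2-1 was -0.554 points without young replicate 2, the library at the ceiling. The adjusted p of CAG-4-1 was 0.909 and its unadjusted p 0.0126. The 5 lowest were T38 of CAG-4-1 (-5.76 points), T38 of CAG-3-1 (-5.67), T55 of TAG-2-1 (-3.49), T55 of AAG-3-1 (-2.61) and T20b of AAG-1-1 (-0.752). This ranking is in points, while the edgeR test is on log odds, and the 2 can differ in direction. At T20b of AAG-1-1 the rate went from 8.62% to 24.4% with CMC in young and from 4.34% to 19.4% in old cells. That is a smaller rise in points but a larger one in odds in old cells. T55 of TAG-2-1 and AAG-3-1, which share stop reads, was lower in every old pair than in every young one.

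Over the members at a position, the mean rise at 55 was 44.99 ± 2.98 points in young cells and 45.9 ± 0.805 in old cells. At 54 it was 3.88 ± 1.18 and 5.76 ± 0.447 points, and at 50 it was 3.57 ± 0.609 and 5.43 ± 0.764, both without overlap between the ages. Without CAG-4-1, the means at 54 were 2.90 ± 0.72 points in young and 3.16 ± 0.234 in old cells over 9 members, and the ages overlapped. The exact two-sided permutation p was 0.8 at position 55 and 0.1, the smallest that 3 against 3 pairs can give, at 54 and 50. Adjusted over 20 positions, every p was 1. At 38 the young mean was higher (39.1 ± 3.44 against 36.0 ± 1.96 points, exact permutation p = 0.3), and at 39 the old (26.7 ± 4.16 against 28.7 ± 2.03, p = 0.5). At 20b the means were 15.5 ± 4.58 and 18.8 ± 1.42 points (exact permutation p = 0.2). In the AAG and TAG tRNAs tested there, the mean stop rate with CMC was lower in old cells, as in AAG-2-1 (36.1% in young, 31.0% in old). In CAG-1-1 and CAG-2-1 it was higher, as in CAG-1-1 (13.5% in young, 18.8% in old).

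The anticodons and the other long-armed tRNAs were compared within pairs of libraries, by a two-sided exact permutation test over the 6 pairs whose smallest p is 0.0312. Of 25 comparisons 12 reached that p, and none passed after adjustment (lowest adjusted p 0.0651). At positions 27 and 28 the 8 member sites rose by 0.921 ± 1.23 points, 2 sites of tRNA-Leu-CAA and tRNA-Leu-TAA by 23.4 ± 5.60 and 11 sites of tRNA-Ser by 26.8 ± 2.58 (SD over 6 pairs). The members were lower in 6 of 6 pairs in both comparisons. All 8 member sites were at 28, while the sites of the other tRNAs could be at 27 or 28. The contrast is thus not shown to be one at the same position. At position 55, AAG rose by 38.9 ± 1.19 points, CAG by 42.4 ± 4.25 and TAG by 56.1 ± 1.23, with TAG higher in 6 of 6 pairs against either. The stop reads that AAG-1-1, AAG-2-1, TAG-1-1 and TAG-3-1 share stand on both sides of the first of these comparisons. AAG minus TAG was -17.3 points, but 0.115 on the scale of log2 odds, in the other direction. Below the ceiling, where 1 site of each was left, CAG minus TAG was 43.8 points.

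At positions 38 and 39, CAG rose by 37.6 ± 3.03 points, AAG by 29.7 ± 3.57 and TAG by 25.7 ± 2.88, and CAG was above TAG in 6 of 6 pairs. Leu-CAA and Leu-TAA rose by 38.8 ± 4.94 points at these positions and Ser by 31.3 ± 3.76, against 31.7 ± 2.46 for all the members. CAG minus TAG turned to -0.204 on the log2 odds scale and to -8.61 points below the ceiling, where 1 CAG site and 2 TAG sites were left. In the D loop the members rose by 9.82 ± 3.52 points, Leu-CAA and Leu-TAA by 3.93 ± 4.50 and Ser by -0.768 ± 2.35. The members were higher in 6 of 6 pairs against each. Their 11 sites were 7 at 20b, which rose, and 4 at 20, with means of -3.47 ± 6.27 points in young and -2.50 ± 4.55 in old cells. The D loop value thus averages positions that changed in opposite directions, and it depends on how many sites of each were tested. With a minimum coverage of 10, the difference from Leu-CAA and Leu-TAA turned to -0.53 points.

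Abundance was taken as a tRNA's highest coverage in the BEU libraries. No member was called different between the ages (edgeR), nor was any of 213 tRNAs (0%). An unadjusted p under 0.05 was found for 0 members and 12 tRNAs in all. DESeq2 called no member and 1 other tRNA. The log2 differences of old over young ran from -0.21 in TAG-2-1 to 0.62 in CAG-2-1, with a median of 0.21 against 0.07 over all tRNAs. For 8 of the 10 members at least 1 BEU library was at the ceiling, which bounds these values. Reads that reached the first base, at most 5245 for a member in a BEU library and so below the ceiling, called 1 tRNA of 156 (0.641%), CAG-4-1. It had 268, 263 and 376 such reads in young and 183, 81 and 67 in old BEU libraries. In CPM of such reads, after TMM scaling, these were 2569, 3154 and 2252 in young against 959.5, 1414 and 1393 in old cells, a log2 difference of -1.12 ± 0.23 (SE, adjusted p = 0.0226). CAG-4-1 was never at the ceiling in a BEU library, and its highest coverage gave a log2 difference of 0.16 ± 0.13, in the other direction. By reads to the first base the other 9 members lay between -0.39, in CAG-3-1, and 0.26, in TAG-3-1. Such reads were nearly equal in CAG-1-1 and CAG-2-1, 2802 and 2805 in the BEU library of young replicate 1. AAG-2-1 and AAG-3-1 had 312 each in that library. The abundances of the 10 members, by either measure, may thus be fewer than 10 separate measurements.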

How the data were processed

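Per the labels' protocols, small RNA was demethylated with AlkB enzymes, split between buffer alone (BEU) and CMC, then exposed to sodium carbonate and reverse transcribed. Bowtie, Bowtie2 2.3.5 and the build mm10 are listed in the submitters' processing notes, without roles. The authors deposited 6 tables, 1 for each age and replicate number, with coverage (a read count), stop reads and the stop rate (a percent) for each base, per the file headers; the lowest deposited value is 1. The handling of reads that match several tRNAs was not given in the sources used here. Genome coordinates of the entries are not used here.

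Stops were tested with edgeR 4.0.16 (R 4.3.3) on stop and read-through counts of all distinct tRNAs, with a log-odds term for each group, and p-values were adjusted by Benjamini-Hochberg for T and for other bases apart. Stops of BEU libraries were compared at bases with a mean stop rate of at least 5%, and abundance by edgeR with TMM scaling on each tRNA's highest coverage. limma 3.58.1 and DESeq2 1.42.0 were alternatives, and permutation tests used scipy 1.17.1. The code was tested on simulated data. The members, lists and positions were chosen with earlier results of these data known. Named are all called member sites, member sites at the positions of known synthases, the 5 highest and 5 lowest age differences and each member's abundance. A rise is the difference between the CMC and the BEU library of the same deposited table, and the SDs, the rule of 3 pairs and the permutation tests rest on that matching; the edgeR model has no term for it.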

Additional observations from a re-analysis of the deposited data

How the results depend on the processing

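The number of member T sites called in young and old cells was 36 and 43. It was 64 and 77 with every entry kept (21.8% and 26.2%, against 18.8% and 19.8% of all T sites), 13 and 16 at the 61 sites below the ceiling (21.3% and 26.2%, against 17.8% and 19.7%), and 23 and 27 with a rise of at least 20 points (14.7% and 17.3%, against 14% and 15.5%). Leaving out a replicate gave 36 to 37 and 39 to 45. With the replicate block as a pair term the counts were 35 and 43, and as a number term 36 and 43; the block gave no age call among the members. Deviations of CMC and BEU libraries with the same number correlated between -0.141 and 0.044, and those of the ages between -0.63 and 0.588, so the numbers alone were not taken as a shared source. No other setting moved these counts by over 1.5 times. The BEU age calls among members were 5 below the ceiling, 4 with DESeq2 and 0 otherwise, including each left-out replicate. Age calls in CMC stops stayed at 0 of the members throughout, and abundance calls at 0 except for 1 at the first base.

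At sites below the ceiling, 12 of 17 family differences passed, at an adjusted permutation p of 0.0443. These 12 had the smallest p the permutation test can give, 0.0312, as did 12 of 25 over all sites, where the adjusted p was 0.0651. The adjusted p is thus lower here because fewer comparisons were made, and some of them had 1 site on a side. In the same direction as over all sites were 8: at 55 against Ser (28.9 points), at 54 (7.5), 38 and 39 (-14.3), 27 and 28 (-23.1) and the D loop (7.11) against Leu-CAA and Leu-TAA, at 27 and 28 (-26.1) and the D loop (11.8) against Ser, and in the D loop for AAG minus TAG (5.6). The other 4 passed in the opposite direction: CAG minus TAG with 43.8 at 55 and -8.61 at 38 and 39, members minus Leu-CAA and Leu-TAA with 12.3 at 55, and members minus Ser with -7.39 at 38 and 39. AAG minus TAG also turned, to -0.456 at 27 and 28. On log2 odds, AAG minus CAG turned to 0.721 (55), 0.947 (54), 0.301 (38 and 39) and -0.419 (D loop), AAG minus TAG to 0.115 (55), 0.362 (54) and -0.000851 (27 and 28), CAG minus TAG to -0.585 (54), -0.204 (38 and 39) and 0.892 (D loop), members minus Leu-CAA and Leu-TAA to 0.507 (55), -0.0164 (54) and 0.927 (38 and 39), and members minus Ser to -0.124 (54) and -0.0307 (38 and 39). With the median over sites, AAG minus CAG turned to 17.2 (55) and 2.03 (54), CAG minus TAG to -4.17 (54), members minus Leu-CAA and Leu-TAA to -0.761 (54), and members minus Ser to -1.8 (55), -0.493 (54) and -1.44 (38 and 39). A minimum coverage of 50 gave 1.5 and -4.03 for AAG minus CAG and CAG minus TAG at 54, -1.12 and 2.09 against Leu-CAA and Leu-TAA at 54 and at 38 and 39, and -0.608 against Ser at 54. A minimum of 10 gave -1.2, -0.0551 and 1.14 for AAG minus CAG, AAG minus TAG and CAG minus TAG in the D loop and -0.53 against Leu-CAA and Leu-TAA, and subtracting 1 gave 1.08 for CAG minus TAG. In young pairs alone, CAG minus TAG at 54 was -1.4 and members minus Ser at 38 and 39 was -0.0296. The cause was not tested in any of these. Leaving out a pair turned the D loop difference of CAG minus TAG (-2.04 to 1.15), members minus Ser at 38 and 39 (-0.558 to 1.51) and AAG minus TAG at 27 and 28 (-0.218 to 1.91).

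Age differences by position also turned when a pair was left out: -0.335 to 0.342 at position 2, -1.27 to 0.348 at 3, -1.61 to 4.46 at 20, -0.772 to 0.58 at 32, -0.247 to 3.86 at 39, -0.647 to 0.464 at 44, -0.731 to 2.2 at 55, -2.01 to 2.43 at 60, -0.0418 to 0.024 at 66, -0.0115 to 0.00752 at 67 and -0.0376 to 0.0475 at 69. At single sites, T20b of AAG-1-1 ran from -2.46 to 1.59, the last without young replicate 3, and T55 of CAG-2-1 from -0.554, without young replicate 2, to 16.6. Log2 abundance differences that turned were -0.0521, -0.0548, -0.0017, -0.000432, -0.394 and -1.12 at the first base (AAG-2-1, AAG-3-1, CAG-1-1, CAG-2-1, CAG-3-1, CAG-4-1), -0.0985 for AAG-3-1 in CMC libraries, -0.0796 and -0.0812 for TAG-1-1 and TAG-3-1 with every entry, -0.0979, -0.0276, -0.212 and -0.212 without TMM (AAG-3-1, CAG-4-1, TAG-1-1, TAG-3-1), and, without old replicate 3, -0.0279 for TAG-1-1 and -0.0127 for TAG-3-1. Leaving out each replicate in turn gave -0.0279 to 0.0472 for TAG-1-1, -0.411 to 0.0225 for TAG-2-1 and -0.0127 to 0.0591 for TAG-3-1.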
